A study of Mus musculus with 31 samples.

Results

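The effect of imipramine (IMN) common to wild-type (WT) and Brd1+/- mice was examined in the caudate putamen (CPu), the dorsal part of the striatum. It was taken from all 31 of the 31 CPu samples in a single fit, with IMN against vehicle as the term of interest and genotype as a covariate, across 25394 genes. The samples were 8 WT and 7 Brd1+/- mice injected with saline vehicle and 8 WT and 8 Brd1+/- mice injected with IMN at 10 mg/kg. All were labelled as females 8 to 11 weeks old on the C57BL/6NTac background, and the Brd1+/- mice carried 1 allele with a targeted deletion, made with loxP sites around exons 3 to 5. Each mouse received subcutaneous injections on 2 days, was tested in tail suspension and then in open field and forced swimming, and was sacrificed 1 hour after the swim, so every value is that of a recently stressed animal and vehicle mice went through the same tests. RNA came from frozen punches 1 mm across of the right hemisphere, and each sample was 1 mouse.

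IMN is a tricyclic antidepressant that blocks the reuptake transporters of noradrenaline and serotonin and also binds muscarinic, histamine and alpha-adrenergic receptors. Neurons of the striatum take up monoamine and glutamate signals through receptors that act on cAMP and calcium, and synaptic activity turns on immediate early genes such as Arc and Fos within minutes. Swimming and restraint raise glucocorticoids, which enter the brain and, through their nuclear receptor, turn on genes such as Fkbp5, Sgk1 and Ddit4.

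Abundance was given as TPM, a unit in which a gene's reads are divided by its length and the total of every sample is made equal, so the values do not keep each mouse's read depth, for which the study's methods state a minimum. Fold changes, with their standard errors (SE), are on the log2(TPM + 1) scale, IMN minus vehicle, which understates the change of genes near or under 1 TPM. Punches differed in their content of cortical tissue. The mean log2(TPM + 1) of 10 cortical neuron markers was above 4.5 in 6 of the 8 vehicle administered WT mice, in 2 of the 8 IMN administered WT mice and in none of the 15 Brd1+/- mice. Its group means were 4.87 ± 2.16 (SD, n = 8) and 3.01 ± 1.46 (SD, n = 8) in WT mice with vehicle and IMN, and 3.02 ± 0.645 (SD, n = 7) and 2.93 ± 1.09 (SD, n = 8) in Brd1+/- mice. The summed level of the cortical list ran from 112 to 2330 TPM in vehicle administered WT mice against 101 to 1160 TPM, 119 to 327 TPM and 103 to 472 TPM in the other groups in that order. The mean log2(TPM + 1) of 10 defining striatal markers was between 8.16 and 9.10 outside the vehicle administered WT mice. In vehicle administered WT mouse 2 it was 3.20, and Drd1, Drd2 and Adora2a were at 1.37, 0.748 and 1.02 TPM, against at least 29.7, 29.9 and 26.2 TPM in the other 30 mice, which goes against its label as CPu. Cortical content thus moved with treatment in WT mice, and its part in the results was not tested beyond the fits with the cortical score in the fit, without the 8 mice above 4.5 and within Brd1+/- mice that stand beside them. The summed level of 4 Y-linked genes was 26.8 TPM in vehicle administered WT mouse 7, against 0.188 TPM or less in the other 30, which goes against its label as female. Without mouse 7 50 genes passed the FDR described next, and at p under 0.01 the lists described below held 12 lower activity-regulated, 7 higher glucocorticoid-responsive, 8 lower cholesterol and 15 lower heat shock response genes, in place of 14, 11, 10 and 17. Without mouse 2 the FDR count was 64 and those of the lists 12, 7, 9 and 14.

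**Figure D1:**
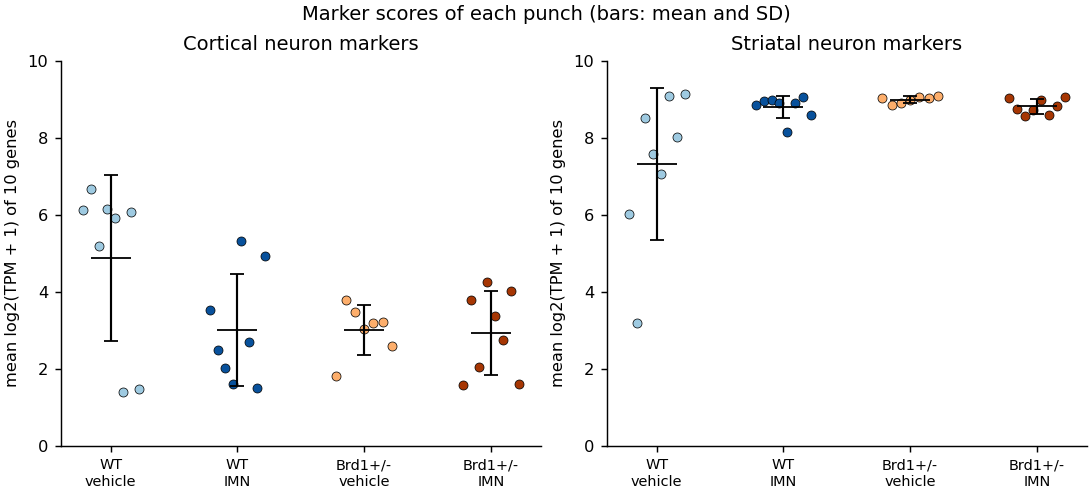
Mean log2(TPM + 1) of 10 cortical neuron markers (left) and 10 striatal projection neuron markers (right) in each of the 31 mice, by group; each point is 1 mouse and the bars are the mean and SD. Of the 8 vehicle administered WT mice, 6 lie above 4.5 on the cortical score, as do 2 IMN administered WT mice.

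With genotype as a covariate, 107 of the 25394 genes differed between IMN and vehicle administered mice at an FDR of 5% (limma). Of these 28 were higher, which is 0.11% of the genes tested, and 79 were lower, which is 0.311%. The smallest adjusted p was that of Arc, the immediate early gene of synaptic activity. At the nominal threshold of p under 0.01, 332 genes (1.31%) were higher and 1061 (4.18%) were lower with IMN. The excess of lower genes depended on scaling. After median-of-ratios scaling, 613 genes (2.41%) were higher and 692 (2.73%) lower, with 111 genes under an FDR of 5%, of which 73 were among the 107. With the cortical score in the fit the nominal counts were 255 (1.0%) higher and 451 (1.78%) lower, and 34 genes passed the FDR. Leaving out 1 mouse at a time gave 43 to 368 genes under an FDR of 5%, the highest count without vehicle administered WT mouse 8. All 107 genes kept their direction in each of those 31 fits, and 38 of them passed the FDR in every one. Those fits reuse mice in which the 107 were chosen, so a kept direction is no separate support.

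The 107 genes were chosen by the average over both genotypes, which by itself favours a like sign, and all had the same sign in the WT and in the Brd1+/- mice taken on their own. The change was the larger one in WT mice for 76 of them. Read within each genotype with a common spread, 3424 genes (13.5%) had a p under 0.01 in WT mice and 296 (1.17%) in Brd1+/- mice, and 50 genes had it in both, 46 in the same direction and 4 in opposite directions. Those counts became, with the cortical score in the fit, 619 in WT mice (138 higher and 481 lower) and 422 in Brd1+/- mice (195 and 227), and with the striatal score 409 and 391. Under an FDR of 5% the WT count of 2291 became 0 with the cortical and 1 with the striatal score, 1098 after median-of-ratios scaling, 1191 after quantile normalization and 5864 with weights for each mouse (limma). It ran from 85 to 5226 without 1 mouse, with over 1.5 times fewer genes without vehicle administered WT mice 1, 2, 4, 5 or 7 or IMN administered WT mice 1 to 4, 6 or 7, and over 1.5 times more without vehicle administered WT mice 6 or 8 or IMN administered WT mouse 5. Without vehicle administered WT mouse 8 the count at p under 0.01 in WT mice was 5175. The groups compared in the 2 genotypes share no mice. Of the 132 genes higher with IMN in Brd1+/- mice at that threshold, 80 (60.6%) were also higher in WT mice, where 33.5% of all genes were, and of the 164 lower ones 125 (76.2%) were lower in WT mice, where 66.5% of all genes were. The split of 633 higher and 2791 lower genes in WT mice became 1212 and 1565 after median-of-ratios scaling and 1328 and 1425 after quantile normalization. Read the other way, of the 633 genes higher in WT mice 335 (52.9%) were higher in Brd1+/- mice, where 54.2% of all genes were, and of the 2791 lower ones 1511 (54.1%) were lower, where 45.7% of all genes were. The median change in Brd1+/- mice of the genes higher and lower in WT mice was 0.01 and −0.01. Genes under an FDR of 5% in Brd1+/- mice alone were Depp1, Sox18, Arc and Ddit4. That count of 4 was 2 or less in 24 of the 31 fits without 1 mouse, and 1 without vehicle mouse 3, 5, 6 or 7 or IMN mouse 4 of the Brd1+/- mice (limma). A difference in the effect of IMN between the genotypes at p under 0.01 was found for 951 genes (3.74%), and for 3 of the 107. None of the 25394 genes passed an FDR of 5% for that difference (limma), with 4119 at an unadjusted p under 0.05, while 1 gene passed after median-of-ratios scaling and 2624 with weights for each mouse.

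**Figure D2:**
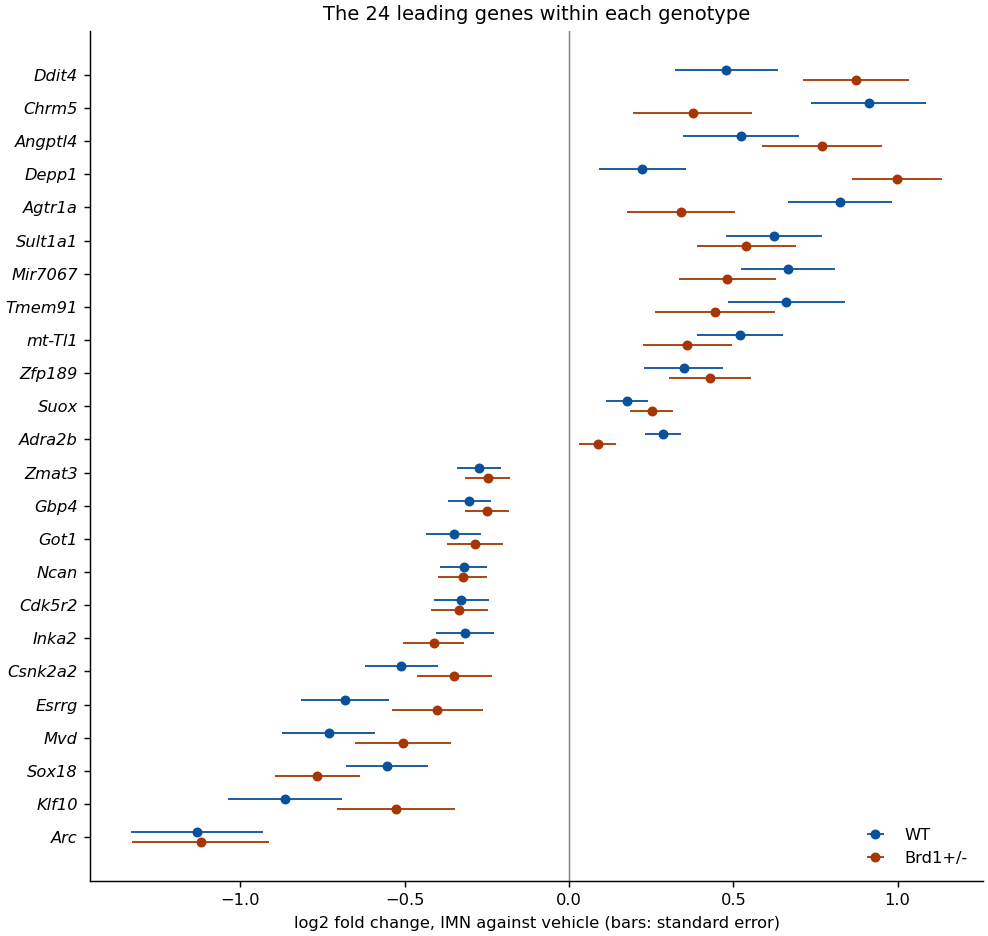
Log2 fold change of IMN against vehicle within WT (blue) and Brd1+/- mice (brown) for the leading 12 higher and 12 lower genes by p; points are estimates and bars standard errors. Every gene lies on the same side of 0 in both genotypes, Arc at −1.13 and −1.12, and Depp1 has the widest gap, at 0.22 and 1.00.

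Of 41 genes turned on by neuronal activity, 14 (34.1%) were lower with IMN at p under 0.01 and 0 were higher, beside 4.18% of all genes lower and 1.31% higher, and 5 passed the FDR, as 0.311% of all genes did downward. Their median log2 fold change was −0.27, against −0.03 over all genes tested. Arc (chr15:74669083-74672570, reverse strand, GRCm38), whose product acts in the removal of AMPA receptors from synapses, was at 101 to 313 TPM (median 199) with vehicle and 66.6 to 115 TPM (median 87.1) with IMN in WT mice. Brd1+/- mice were at 80.98 to 206 TPM (median 115) with vehicle and 37.3 to 73.4 TPM (median 58.4) with IMN. Every IMN administered Brd1+/- mouse was below every vehicle administered one, and 6 of the 8 IMN administered WT mice were below the lowest WT vehicle value. Its log2 fold change was −1.13 (SE 0.14, adjusted p = 0.000145), with −1.13 (SE 0.20) in WT and −1.12 (SE 0.21) in Brd1+/- mice.

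Egr1, a zinc finger transcription factor of the immediate early class, was at 167 to 313 TPM (median 279.6) with vehicle and 141 to 264 TPM (median 179) with IMN in WT mice. Its values in Brd1+/- mice were 181 to 288 TPM (median 244) with vehicle and 135 to 179.8 TPM (median 150.5) with IMN, again without overlap. The fold change was −0.50 (SE 0.10, adjusted p = 0.0130). Klf10, a transcriptional repressor of the Krüppel-like family, fell by 0.70 on the log2 scale, from a median of 23.0 to 9.90 TPM in WT and from 12.3 to 7.74 TPM in Brd1+/- mice, with overlap in both genotypes (adjusted p = 0.00862). Ier5, an immediate early response gene, and Nptx2, a secreted pentraxin that gathers AMPA receptors, had log2 fold changes of −0.67 and −0.55 (adjusted p = 0.0321 and 0.0360), with −0.94 and −0.79 in WT against −0.37 and −0.28 in Brd1+/- mice. They passed the FDR in 18 and 17 of 31 fits without 1 mouse, and with the cortical score in the fit their adjusted p was 0.0367 and 0.0588 (limma).

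The classical Fos did not pass the FDR. Its values were 5.88 to 63.7 TPM (median 21.9) with vehicle and 3.43 to 14.2 TPM (median 8.52) with IMN in WT mice, and 4.82 to 16.9 TPM (median 8.45) with vehicle and 2.66 to 9.46 TPM (median 5.26) with IMN in Brd1+/- mice. The groups overlapped in both genotypes, and the log2 fold change was −1.03 (SE 0.25, adjusted p = 0.0581). Npas4, a transcription factor induced by calcium influx into neurons, had a log2 fold change of −0.79 (SE 0.19, adjusted p = 0.0506), with −0.48 in WT and −1.12 in Brd1+/- mice. Also lower at p under 0.01 were Dusp6, Klf4, Dusp1, Ier2, Nr4a1, Rheb and Bdnf, with log2 fold changes from −0.28 (Rheb) to −0.97 (Bdnf). Bdnf, which encodes a neurotrophin supplied to the striatum largely by cortical neurons, ran from 0.0625 to 14.5 TPM in vehicle administered WT mice, and its log2 fold change was −1.67 in WT and −0.22 in Brd1+/- mice. With the cortical score in the fit, 12 of the 41 genes were lower at p under 0.01 and the log2 fold changes of Arc, Egr1 and Klf10 were −0.96, −0.49 and −0.49 (adjusted p = 0.000163, 0.0362 and 0.00129). Leaving out 1 mouse at a time gave 12 to 15 lower genes of the list.

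**Figure D3:**
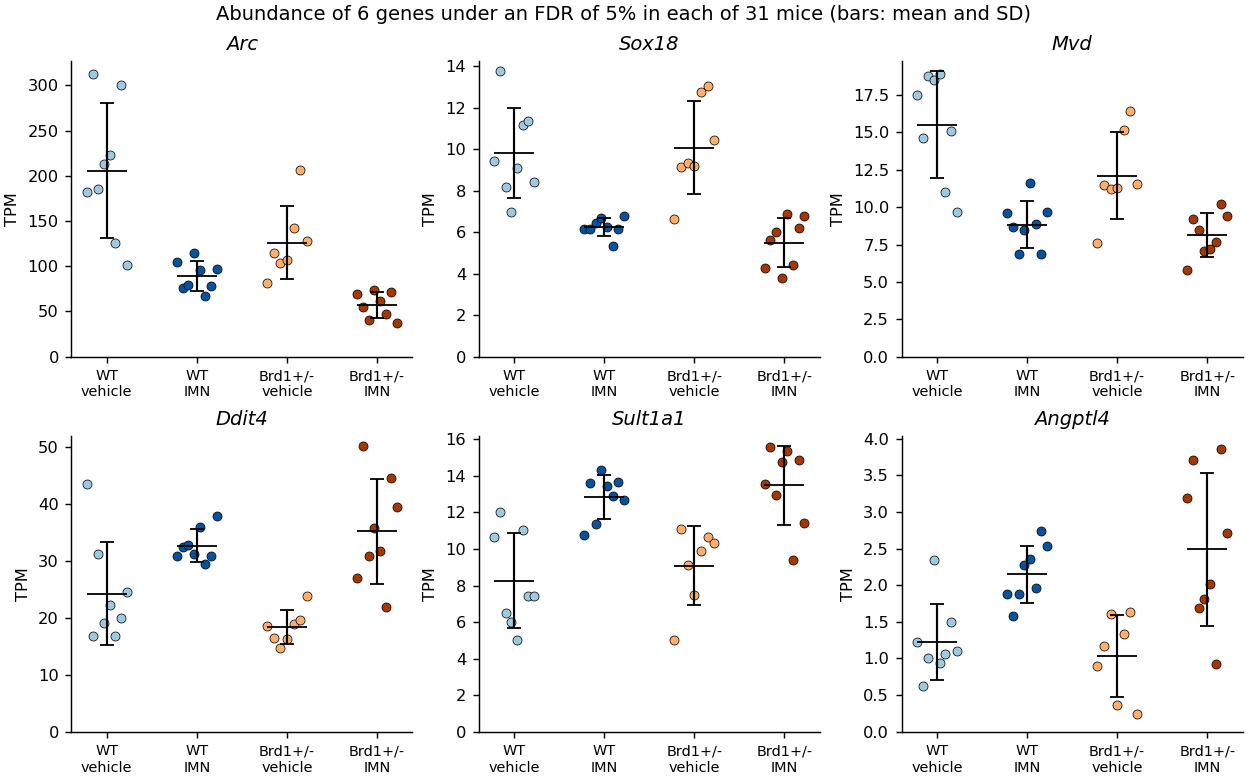
TPM of Arc, Sox18, Mvd, Ddit4, Sult1a1 and Angptl4 in each of the 31 mice, by group; each point is 1 mouse, the bars are the mean and SD, and each axis starts at 0. IMN administered mice lie lower for Arc, Sox18 and Mvd and higher for Ddit4, Sult1a1 and Angptl4 in both genotypes, and vehicle administered WT mouse 1 stands highest of its group for Ddit4, at 43.6 TPM.

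A list of 36 genes held genes known to respond to glucocorticoids and the corticosteroid receptors Nr3c1 and Nr3c2. At p under 0.01, 11 (30.6%) were higher with IMN and 1 (2.78%), Dusp1, was lower, beside 1.31% and 4.18% of all genes. Of the higher ones 4 passed the FDR, as 0.11% of all genes did upward. In all, 27 had a positive and 9 a negative log2 fold change. Tsc22d3, Per1, Klf9, Mt1 and Zbtb16, at −0.12, −0.17, 0.05, 0.06 and 0.09, were among those not at p under 0.01. The median log2 fold change of the list was 0.18, against −0.03 over all genes tested, with 0.13 in WT and 0.26 in Brd1+/- mice. Ddit4 (chr10:59949669-59951834, reverse strand, GRCm38), an inhibitor of the growth kinase complex mTORC1, was at 16.9 to 43.6 TPM (median 21.1) with vehicle and 29.5 to 38.02 TPM (median 31.8) with IMN in WT mice. Its range in Brd1+/- mice was 14.7 to 23.9 TPM (median 18.6) with vehicle and 21.99 to 50.2 TPM (median 33.8) with IMN. In WT mice the groups overlapped through the vehicle values of mouse 1, the highest, and of mouse 3, at 31.2 TPM, and 7 of the 8 IMN administered Brd1+/- mice were above the highest vehicle value. The log2 fold change was 0.67 (SE 0.12, adjusted p = 0.00862), or 0.48 (SE 0.16) in WT and 0.87 (SE 0.16) in Brd1+/- mice.

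Sult1a1 (chr7:126672865-126676432, reverse strand, GRCm38), a sulfotransferase of phenols and catechols, was at 5.01 to 12 TPM (median 7.45) with vehicle and 10.8 to 14.3 TPM (median 13.2) with IMN in WT mice. Brd1+/- mice had 5.03 to 11.1 TPM (median 9.91) with vehicle and 9.41 to 15.6 TPM (median 14.2) with IMN. Of the IMN administered mice, 6 of 8 WT and 7 of 8 Brd1+/- mice were above every vehicle mouse of their genotype. The change was 0.58 (SE 0.10, adjusted p = 0.00862) and was close in size in WT and Brd1+/- mice, 0.62 and 0.54. Its gene overlaps Sgf29 on the other strand, and whether reads were counted by strand is not given in the sources used here. Angptl4, a secreted inhibitor of lipoprotein lipase, was at 0.622 to 2.34 TPM (median 1.08) with vehicle and 1.58 to 2.74 TPM (median 2.12) with IMN in WT mice. The values in Brd1+/- mice were 0.244 to 1.63 TPM (median 1.17) with vehicle and 0.920 to 3.85 TPM (median 2.37) with IMN. The groups overlapped in both genotypes, and the log2 fold change was 0.64 (SE 0.13, adjusted p = 0.0182).

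Plin4, a coat protein of lipid droplets, had the largest estimate of the list, 1.03 (SE 0.24, adjusted p = 0.0488). In WT mice it was at 0.675 to 12.6 TPM (median 2.22) with vehicle and 2.35 to 12.1 TPM (median 5.07) with IMN, where mouse 1 had the 12.6 TPM and the other 7 vehicle mice 2.98 TPM or less. Brd1+/- mice had 0.391 to 2.54 TPM (median 1.31) with vehicle and 2.11 to 9.43 TPM (median 4.74) with IMN, with 7 of the 8 IMN mice above every vehicle mouse. When mice were left out one at a time, Plin4 passed the FDR in 3 of 31 fits. Sgk1, a kinase that acts on ion channels and transporters, was at 58.04 to 304 TPM (median 92.97) with vehicle and 94.5 to 177 TPM (median 153) with IMN in WT mice. Values in Brd1+/- mice were 64.1 to 95.7 TPM (median 85.4) with vehicle and 89.1 to 283 TPM (median 149) with IMN. Its log2 fold change of 0.64 did not pass the FDR (adjusted p = 0.0819), and mouse 1 again held the highest vehicle value among WT mice. The summed level of 10 oligodendrocyte markers was 9550 TPM in vehicle administered WT mouse 1, the highest of all 31 mice, where Sgk1 was at 304 TPM. IMN administered Brd1+/- mice 2, 7 and 4 followed in Sgk1, at 283, 226 and 203 TPM, and their oligodendrocyte scores, the mean log2(TPM + 1) of the markers, were 8.45, 8.19 and 7.88 against 8.86 in mouse 1 and 5.89 to 7.28 in the other 5 mice of their group. With the oligodendrocyte score in the fit, an alternative chosen after seeing the data, Sgk1 was at 0.53 (adjusted p = 0.000961), Ddit4 at 0.61 (adjusted p = 0.000207) and Plin4 at 0.90 (adjusted p = 0.0116, limma), and 10 genes of the list were higher and 2 lower at p under 0.01, beside 1.82% and 6.30% of all genes. Without mouse 1, 10 were higher and 1 lower. With genotype alone as covariate the FDR was not passed by Fkbp5, a co-chaperone of the glucocorticoid receptor, with 0.22 (adjusted p = 0.158), Hif3a, with 0.50 (adjusted p = 0.119), or Nfkbia, an inhibitor of NF-kappa B, with 0.36 (adjusted p = 0.123). Mfsd2a, a lipid transporter of the blood-brain barrier, Arrdc2 and Cebpd were the other higher genes of the list, at 0.20, 0.63 and 0.33. The count of higher genes in the list was 13 with the cortical score in the fit, 14 after median-of-ratios scaling and 15 without the 8 mice over 4.5 on that score, beside 1.00%, 2.41% and 1.85% of all genes. It was 7 without vehicle administered WT mouse 2 or 7, IMN administered WT mouse 5 or IMN administered Brd1+/- mouse 3, and between 7 and 12 over all 31 such fits.

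Promoter windows are shown for the leading genes with a RefSeq entry (GRCm38.p6), taking the first 2 in each direction with 1 entry, to set genes that rose beside genes that fell. Each runs 5′ to 3′ on the gene's own strand from 250 bases before to 50 bases after the start of the transcript, and all 4 genes lie on the reverse strand. Capitals mark exact matches, on either strand, to 8 motifs, namely the glucocorticoid receptor hexamer (TGTTCT), the full glucocorticoid response element (the hexamer's reverse complement, 3 bases of any kind and the hexamer, so that each match holds hexamers too), the cAMP response element (TGACGTCA), the E-box (CACGTG), the EGR site (GCGTGGGCG), the sterol regulatory element (TCACNCCAC), the CCAAT box (CCAAT) and the GC box (GGGCGG).
Ddit4, chr10:59951721-59952020: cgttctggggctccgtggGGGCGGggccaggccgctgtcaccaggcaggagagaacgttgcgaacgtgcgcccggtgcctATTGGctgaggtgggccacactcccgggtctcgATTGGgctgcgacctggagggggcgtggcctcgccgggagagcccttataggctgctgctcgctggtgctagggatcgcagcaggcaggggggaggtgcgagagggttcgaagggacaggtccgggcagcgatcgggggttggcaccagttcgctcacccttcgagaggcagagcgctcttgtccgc
Sult1a1, chr7:126676369-126676668: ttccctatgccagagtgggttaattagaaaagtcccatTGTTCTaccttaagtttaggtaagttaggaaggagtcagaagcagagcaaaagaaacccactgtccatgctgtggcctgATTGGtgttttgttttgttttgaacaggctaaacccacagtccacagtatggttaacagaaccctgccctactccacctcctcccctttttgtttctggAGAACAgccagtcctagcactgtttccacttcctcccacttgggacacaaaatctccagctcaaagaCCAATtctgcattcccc
Ncan, chr8:70120795-70121094: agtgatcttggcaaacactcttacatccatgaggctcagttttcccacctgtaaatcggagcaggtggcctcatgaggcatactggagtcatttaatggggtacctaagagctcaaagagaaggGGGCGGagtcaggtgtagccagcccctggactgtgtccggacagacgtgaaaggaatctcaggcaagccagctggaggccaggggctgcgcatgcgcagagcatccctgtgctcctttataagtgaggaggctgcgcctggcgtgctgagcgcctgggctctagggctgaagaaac
Mvd, chr8:122443373-122443672: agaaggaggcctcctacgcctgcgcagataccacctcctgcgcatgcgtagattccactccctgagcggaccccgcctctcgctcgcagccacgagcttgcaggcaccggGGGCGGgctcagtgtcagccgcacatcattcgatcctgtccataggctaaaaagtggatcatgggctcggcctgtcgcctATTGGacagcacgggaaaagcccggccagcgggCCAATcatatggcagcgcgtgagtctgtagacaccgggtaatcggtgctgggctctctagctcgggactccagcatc
The receptor hexamer was matched in Sult1a1 alone of these 4 windows, from base 39 of the window on the gene's strand and from base 217 on the other, and 19.0% of all 32851 windows hold at least 1. Full glucocorticoid response elements were in 0.00913% of all windows, and in none of the 4. CCAAT boxes were matched in Ddit4, Sult1a1 and Mvd (37.4% of windows) and GC boxes in Ddit4, Ncan and Mvd (35.7%). Matches to the cAMP response element (1.79% of windows), E-box (7.15%), EGR site (0.612%) and sterol regulatory element (1.24%) were absent from the 4 windows.

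Sox18 was the gene with the second smallest p. It encodes a transcription factor of endothelial cells, which line blood and lymph vessels (chr2:181669836-181671640, reverse strand, GRCm38). In WT mice it was at 6.96 to 13.7 TPM (median 9.25) with vehicle and 5.35 to 6.78 TPM (median 6.21) with IMN, without overlap. The range in Brd1+/- mice was 6.62 to 13.1 TPM (median 9.31) with vehicle and 3.804 to 6.85 TPM (median 5.81) with IMN, with 6 of the 8 IMN administered mice below every vehicle mouse. The log2 fold change was −0.66 (SE 0.09, adjusted p = 0.000510), and with the cortical score in the fit −0.66 (adjusted p = 0.00135). A further 2 genes of endothelial cells, chosen after their values were seen, were also under the FDR, Cd93, a surface glycoprotein, at −0.27 (adjusted p = 0.0371), and Bcl6b, a transcriptional repressor, at −0.35 (adjusted p = 0.0393). Both passed in 13 of 31 fits when mice were left out one at a time, and with the cortical score in the fit their adjusted p was 0.125 and 0.138 (limma).

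Of 12 endothelial and mural cell markers, 0 were higher and 1 (8.33%), Cldn5, a tight junction protein, was lower at p under 0.01, beside 1.31% and 4.18% of all genes, with a log2 fold change of −0.24 (SE 0.08, adjusted p = 0.141). After median-of-ratios scaling or quantile normalization, and with the cortical or striatal score in the fit, 0 were lower. Their median log2 fold change was −0.000233. Their summed level ran from 159 to 205 TPM and 161 to 197 TPM in WT mice with vehicle and IMN, and from 171 to 206 TPM and 172 to 229 TPM in Brd1+/- mice. In bulk tissue, fewer cells of a type and less RNA of a gene per cell cannot be told apart.

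Mvd, the enzyme that decarboxylates mevalonate diphosphate on the way to cholesterol, lies at chr8:122433601-122443422 (reverse strand, GRCm38) and was at 9.67 to 18.9 TPM (median 16.3) with vehicle and 6.85 to 11.6 TPM (median 8.76) with IMN in WT mice. Brd1+/- mice had 7.59 to 16.5 TPM (median 11.5) with vehicle and 5.8 to 10.2 TPM (median 8.06) with IMN. The groups overlapped in both genotypes, with 7 of 8 IMN administered WT mice and 3 of 8 Brd1+/- mice below every vehicle mouse, and the log2 fold change was −0.62 (SE 0.10, adjusted p = 0.00505). Of 36 genes of cholesterol and fatty acid synthesis tested, 10 (27.8%) were lower at p under 0.01 and 0 higher, beside 4.18% and 1.31% of all genes, among them Fasn, Mvk, Cyp51, Hmgcs1 and Srebf2, with log2 fold changes from −0.21 (Srebf2) to −0.50 (Hmgcs1) and adjusted p of 0.109 or more (limma). Mvd was the single one under the FDR. The list's median was −0.38 in WT and −0.02 in Brd1+/- mice. With the cortical score in the fit 1 of the 36 was lower, beside 1.78% of all genes, which was Mvd, at −0.49 (adjusted p = 0.00655). The count of 10 became 6 without vehicle administered WT mouse 1 or 5, and ran from 6 to 12 over the 31 fits.

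Of 42 genes of the heat shock and unfolded protein responses, which are chaperones of the cytosol, the endoplasmic reticulum (ER) and mitochondria with their cofactors and transcription factors, 41 (97.6%) had a negative log2 fold change, as 61.2% of all genes had. At p under 0.01 17 (40.5%) were lower and 0 higher, beside 4.18% and 1.31% of all genes, with a median of −0.19, or −0.26 in WT and −0.12 in Brd1+/- mice. The changes were small, and 1 gene passed the FDR, Dnajb5, a DnaJ co-chaperone of Hsp70 proteins. Dnajb5 was at 176 to 304 TPM (median 223) with vehicle and 139 to 197 TPM (median 166) with IMN in WT mice. Values in Brd1+/- mice were 142 to 241 TPM (median 182) with vehicle and 127 to 193 TPM (median 139) with IMN. The groups overlapped, and the log2 fold change was −0.39 (SE 0.08, adjusted p = 0.0182), with an adjusted p of 0.0588 once the cortical score was in the fit. Hspa8, the constitutive Hsc70, had a log2 fold change of −0.27 (SE 0.07, adjusted p = 0.0684) and was lower in 7 of 8 IMN administered Brd1+/- mice than in every vehicle one. Hspa5, the ER chaperone BiP, had −0.44 (SE 0.13, adjusted p = 0.0999), with −0.30 in WT and −0.58 in Brd1+/- mice. Xbp1, a transcription factor of the unfolded protein response, and Pdia4, an ER disulfide isomerase, had log2 fold changes of −0.40 and −0.35. The heat-inducible Hspa1a and Hspa1b were at −0.44 and −0.51, with −0.82 and −0.88 in WT against −0.03 and −0.11 in Brd1+/- mice. With the cortical score in the fit 9 of the 42 were lower, beside 1.78% of all genes, and after median-of-ratios scaling 14, beside 2.73%. After quantile normalization 8 were lower, beside 639 of the 25394 genes. Without the 8 mice over 4.5 on the cortical score 12 were lower, beside 1.66% of all genes. Without 1 mouse at a time the count ran from 13 to 24.

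**Figure D4:**
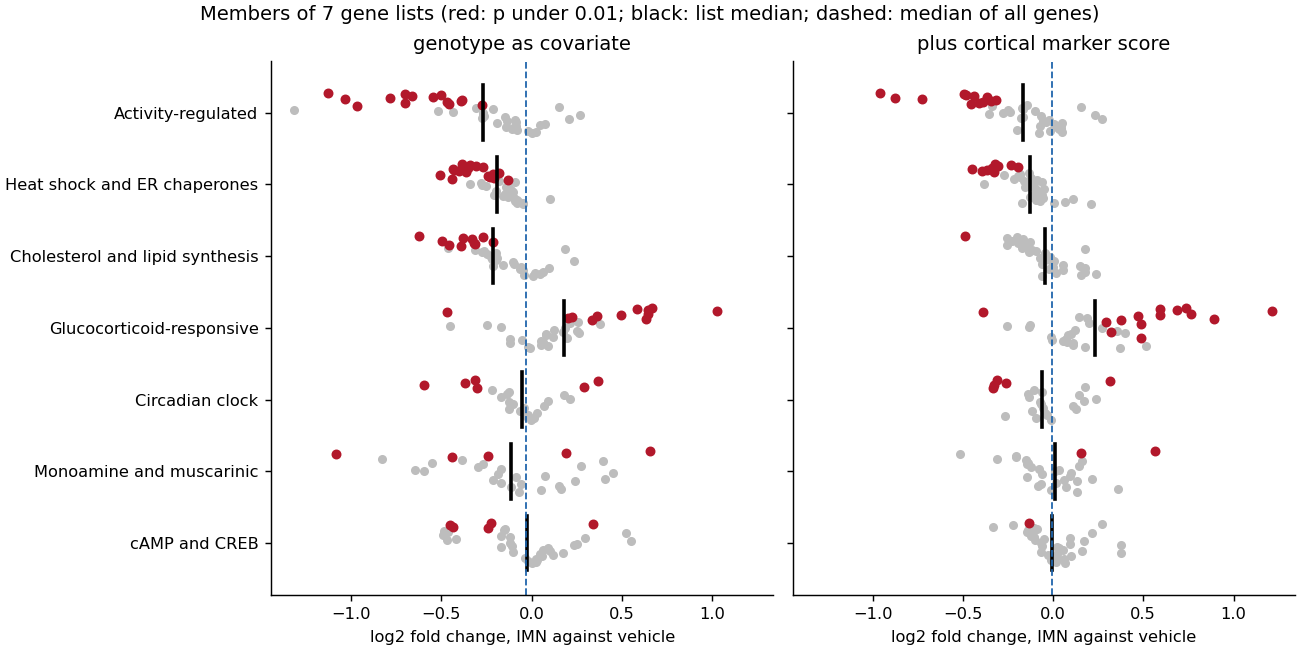
Log2 fold changes of the tested members of 7 gene lists, each point 1 gene, with genotype as covariate (left) and with the cortical score added (right); red points have p under 0.01, black bars are list medians and the dashed line is the median of all genes tested. The glucocorticoid-responsive median lies at 0.18 and 0.24, and the activity-regulated median at −0.27 and −0.17.

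Of serotonin, adrenergic, histamine and muscarinic receptors 29 were tested, of which 2 were higher (6.9%) and 3 lower (10.3%) at p under 0.01, beside 1.31% and 4.18% of all genes, with a median log2 fold change of −0.12. The reuptake transporters Slc6a4 and Slc6a2 did not pass the filter on low values. Chrm5, the M5 muscarinic receptor, was at 0 to 1.13 TPM (median 0.807) with vehicle and 1.36 to 3.82 TPM (median 1.78) with IMN in WT mice, without overlap. In Brd1+/- mice the values were 0.800 to 2.29 TPM (median 1.24) with vehicle and 1.28 to 4.05 TPM (median 1.896) with IMN, with overlap. The log2 fold change was 0.65 (SE 0.13, adjusted p = 0.0205), with 0.91 in WT and 0.38 in Brd1+/- mice. Adra2b, an alpha-2 adrenergic receptor, lay near the filter on low values, between 0.0242 and 0.571 TPM over all 31 mice, and changed by 0.19 (SE 0.04, adjusted p = 0.0370), with the 8 IMN administered WT mice above every vehicle WT mouse but 1 of the 8 Brd1+/- mice above its vehicle group. The lower genes were Adra1d, Chrm1 and Hrh1, at −1.09, −0.24 and −0.44, with adjusted p of 0.134 or more (limma). Adra1d was at 0.328 to 38.04 TPM in vehicle administered WT mice and at 2.91 TPM or less in the other groups. The count of 3 lower receptors ran from 1 to 7 over the 31 fits without 1 mouse, with 1 without vehicle administered WT mouse 3 or 7, IMN administered WT mice 1 to 4 or IMN administered Brd1+/- mouse 8, and over 1.5 times more without vehicle administered WT mouse 6 or 8. With the cortical score in the fit 2 of the 29 were higher and 0 lower, beside 1.0% and 1.78% of all genes. In that fit Chrm5 and Adra2b had adjusted p of 0.0829 and 0.137 (limma).

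Of 22 genes of dopamine and striatal signaling, 1 (4.55%) was higher at p under 0.01, Oprm1, the mu opioid receptor, with a log2 fold change of 0.78 (SE 0.25, adjusted p = 0.130), and 0 were lower, beside 1.31% and 4.18% of all genes. The list's median was 1.17 in WT and −0.15 in Brd1+/- mice, and without the 8 mice over 4.5 on the cortical score 0 of its genes were higher and 7 lower, beside 1.85% and 1.66% of all genes in that fit. Agtr1a, the type 1a angiotensin II receptor, was at 0.390 to 3.23 TPM (median 1.73) with vehicle and 2.83 to 4.67 TPM (median 3.49) with IMN in WT mice. Its values in Brd1+/- mice were 1.86 to 3.36 TPM (median 2.86) with vehicle and 2.496 to 5.03 TPM (median 3.89) with IMN. In each genotype 6 of 8 IMN administered mice were above every vehicle mouse. The log2 fold change was 0.59 (SE 0.12, adjusted p = 0.0207), and with the cortical score in the fit the adjusted p was 0.0847.

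In the circadian clock, 24 genes were tested, of which 2 were higher (8.33%) and 4 lower (16.7%) at p under 0.01, beside 1.31% and 4.18% of all genes, with a median of −0.05. The higher count was 1 with the cortical score in the fit and without vehicle administered WT mouse 5, IMN administered WT mice 3, 4 or 7 or IMN administered Brd1+/- mouse 3. Nr1d1, the repressor REV-ERB alpha, was at 109.8 to 152 TPM (median 126) with vehicle and 78.8 to 106 TPM (median 100.02) with IMN in WT mice, without overlap. The Brd1+/- mice were at 101 to 140.5 TPM (median 111) with vehicle and 75.6 to 122 TPM (median 101) with IMN, with overlap. It changed by −0.32 (SE 0.06, adjusted p = 0.0205), and its adjusted p was 0.105 after median-of-ratios scaling and 0.0506 with the cortical score in the fit. Nr1d1 overlaps the abundant Thra on the other strand, whose log2 fold change was −0.02. Npas2, a partner of BMAL1, was at 30.4 to 54.4 TPM (median 43.4) with vehicle and 48.8 to 67.2 TPM (median 58.5) with IMN in WT mice. Brd1+/- mice had 38.02 to 56.01 TPM (median 49.3) with vehicle and 49.2 to 84.7 TPM (median 55.8) with IMN. The groups overlapped and Npas2 changed by 0.37 (SE 0.08, adjusted p = 0.0438), passing the FDR in 14 of 31 fits without 1 mouse and not with the cortical score in the fit (adjusted p = 0.142). Rorb, Bhlhe40 and Ciart were the other lower genes, at −0.37, −0.60 and −0.30, and Cry1 the other higher one, at 0.29. The core genes Per1 and Nr1d2 were at −0.17 and −0.14, neither at p under 0.01. Per2, Per3, Cry2, Arntl and Clock, also not at p under 0.01, were at −0.06, 0.09, −0.04, 0.01 and −0.004.

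Genes outside the lists were also under the FDR. Ncan, a chondroitin sulfate proteoglycan of the brain matrix, was at 53.97 to 75.2 TPM (median 69.5) with vehicle and 47.2 to 57.4 TPM (median 51.3) with IMN in WT mice. Brd1+/- mice were at 54.6 to 66.9 TPM (median 59.5) with vehicle and 42.7 to 53.8 TPM (median 47.7) with IMN, without overlap. The change was −0.32 (SE 0.05, adjusted p = 0.00317), and its estimates in WT and Brd1+/- mice were both −0.32. Cdk5r2, an activator of the neuronal kinase Cdk5, was at 309.9 to 419 TPM (median 346) with vehicle and 243 to 309 TPM (median 278) with IMN in WT mice, without overlap. Its Brd1+/- values were 262 to 383 TPM (median 325) with vehicle and 198 to 317 TPM (median 266) with IMN, with overlap. Cdk5r2 changed by −0.33 (SE 0.06, adjusted p = 0.00862). Gbp4, an interferon-inducible GTPase under 1 TPM in every mouse, was lower in all IMN administered mice than in all vehicle mice of the same genotype, with a log2 fold change of −0.28 (SE 0.05, adjusted p = 0.00562). Gbp4 lies over Gbp8 and Gbp9, relatives on the same strand, so reads may be split among them.

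Several enzymes were among the lower genes. Got1, the cytosolic aspartate aminotransferase, was at 177 to 298 TPM (median 255) with vehicle and 175 to 223 TPM (median 187) with IMN in WT mice. Its Brd1+/- values were 197 to 226 TPM (median 204) with vehicle and 150.2 to 186 TPM (median 171) with IMN, without overlap. Its log2 fold change was −0.32 (SE 0.06, adjusted p = 0.0109). Csnk2a2, a catalytic subunit of casein kinase 2, changed by −0.43 (SE 0.08, adjusted p = 0.0101). Ogdh, a subunit of the 2-oxoglutarate dehydrogenase of the citric acid cycle, changed by −0.16 (SE 0.03, adjusted p = 0.0130), and Ugcg, the glucosylceramide synthase, by −0.29 (SE 0.05, adjusted p = 0.0147). Those 2 were named after their values were seen. After median-of-ratios scaling Ogdh, Cdk5r2 and Inka2 no longer passed (adjusted p = 0.238, 0.0938 and 0.0799, limma). Inka2, an inhibitor of the kinase PAK4, changed by −0.36 (SE 0.06, adjusted p = 0.00862), Esrrg, an orphan nuclear receptor, by −0.55 (SE 0.10, adjusted p = 0.00862), and Zmat3, a zinc finger protein that binds RNA, by −0.26 (SE 0.05, adjusted p = 0.00862). Gm12291, annotated as a processed pseudogene and so open to reads of its parent gene, changed by −0.40 (SE 0.06, adjusted p = 0.00235), one of the 8 genes that led by the larger of their p in WT and in Brd1+/- mice, beside Arc, Sox18, Ncan, Cdk5r2, Gbp4, Zmat3 and Sult1a1.

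Suox, the mitochondrial sulfite oxidase, was at 7.28 to 10.7 TPM (median 8.17) with vehicle and 9.26 to 10.3 TPM (median 9.63) with IMN in WT mice. Brd1+/- mice had 7.08 to 8.27 TPM (median 7.33) with vehicle and 8.17 to 10.4 TPM (median 9.09) with IMN. The change was 0.21 (SE 0.05, adjusted p = 0.0317), with 7 of 8 IMN administered Brd1+/- mice above every vehicle mouse. Zfp189, a zinc finger protein, changed by 0.39 (SE 0.09, adjusted p = 0.0370), and Tmem91, a membrane protein whose gene overlaps Exosc5 on the other strand, by 0.56 (SE 0.13, adjusted p = 0.0438), passing in 13 of 31 fits without 1 mouse and not with the cortical score in the fit (adjusted p = 0.140). The mitochondrial tRNA gene mt-Tl1 changed by 0.44 (SE 0.09, adjusted p = 0.0295), and its adjusted p was 0.0535 after median-of-ratios scaling and 0.0887 with the cortical score in the fit.

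Of the 107 genes, 3 had an effect of IMN that differed between the genotypes at p under 0.01, which is 2.8% beside 3.74% of all genes. Depp1, a regulator of autophagy induced by FOXO factors, was at 0.711 to 1.87 TPM (median 1.13) with vehicle and 1.09 to 1.92 TPM (median 1.71) with IMN in WT mice. In Brd1+/- mice it was at 0.399 to 1.18 TPM (median 0.962) with vehicle and 1.56 to 3.799 TPM (median 2.51) with IMN, without overlap. Its average log2 fold change was 0.60 (SE 0.12, adjusted p = 0.0179), or 0.22 (SE 0.13) in WT and 1.00 (SE 0.14) in Brd1+/- mice (adjusted p of the difference = 0.261, limma). Slc35a4, a transporter of nucleotide sugars, and Clk3, a kinase of splicing factors, differed the other way, both named after their values were seen. Slc35a4 was at 34.5 to 44.04 TPM (median 36.95) with vehicle and 20.5 to 25.5 TPM (median 21.1) with IMN in WT mice, without overlap. In Brd1+/- mice it was at 19.4 to 36.2 TPM (median 27.1) with vehicle and 18.2 to 37.2 TPM (median 24.9) with IMN. The fold changes of Slc35a4 were −0.75 and −0.13 (adjusted p of the difference = 0.261), and those of Clk3 were −0.54 and −0.13 (adjusted p of the difference = 0.261). Zscan22, a zinc finger gene and not among the 107, had the smallest interaction p of all genes, with 0.48 in WT and −0.50 in Brd1+/- mice and an average of 0.01. With the cortical score in the fit Slc35a4 and Clk3 did not pass the FDR (adjusted p = 0.121 and 0.161, limma). Of the 29 genes of the FOXO list 2 were higher (6.9%, Depp1 and Txnip) and 2 lower (6.9%, Cited2 and Bnip3) at p under 0.01, beside 1.31% and 4.18% of all genes. Once the cortical score was in the fit 5 were higher and 1 lower, beside 1.0% and 1.78% of all genes. A total of 4 were higher without vehicle administered WT mouse 1 or 6, and 1 was lower without vehicle administered WT mice 1, 2 or 4, IMN administered WT mice 1 to 3 or IMN administered Brd1+/- mouse 3.

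In the other lists, read against 1.31% of all genes higher and 4.18% lower at p under 0.01, of 40 lysosomal genes 1 was higher (2.5%) and 2 lower (5.0%, or 4 without vehicle administered WT mouse 8), and of 36 genes of cAMP and CREB signaling 1 was higher (2.78%) and 4 lower (11.1%). After median-of-ratios scaling 2 lysosomal genes were higher and 1 lower, beside 2.41% and 2.73% of all genes. The lysosomal counts were the same after quantile normalization. Of 36 neurotrophic factors and receptors 3 were lower (8.33%), of 27 glutamate and GABA receptor genes 2 were lower (7.41%, or 1 to 4 without 1 mouse), and of the 9 genes of the Brd1 acetyltransferase complexes none passed in either direction. In the glutamate and GABA list 1 was higher and 0 lower after median-of-ratios scaling, beside 2.41% and 2.73% of all genes. After quantile normalization 2 of that list were higher and 0 lower, beside 601 and 639 of the 25394 genes. The 1 higher lysosomal gene became 0 with a replicate block and in 19 of the 31 fits without 1 mouse, those other than the fits without vehicle administered WT mice 1 to 3 or 7, IMN administered WT mice 3 to 5 or 7, vehicle administered Brd1+/- mouse 3 or IMN administered Brd1+/- mice 1, 4 or 7. In the cAMP list Pde4b, a cAMP phosphodiesterase, was higher at 0.34, while Prkaca, a catalytic subunit of protein kinase A, Pde4a, Crem and Camk2a were lower at −0.22, −0.45, −0.44 and −0.24. With the cortical score in the fit 0 genes of the cAMP list were higher and 1 lower, beside 1.0% and 1.78% of all genes. The 4 lower genes of the cAMP list became 2 without vehicle administered WT mice 1, 3, 4 or 7, IMN administered WT mouse 4 or 7 or IMN administered Brd1+/- mouse 7, and 7 without vehicle administered WT mouse 6 or 8. Brd1 itself was at 18.3 to 26.9 TPM (median 22.99) with vehicle and 14.6 to 22.5 TPM (median 21.01) with IMN in WT mice. In Brd1+/- mice it was at 11.1 to 16 TPM (median 13.1) with vehicle and 11.3 to 13.8 TPM (median 12.9) with IMN, and within each treatment the Brd1+/- mice were all below the WT mice. Its change with IMN was −0.12 (SE 0.07, adjusted p = 0.368). Among the markers of other cells, astrocyte, oligodendrocyte and microglia lists had 0 genes at p under 0.01 in either direction. The oligodendrocyte median was −0.09 in WT and 0.48 in Brd1+/- mice, where the summed level of its 10 markers ran from 1380 to 4100 TPM with vehicle and from 1280 to 7560 TPM with IMN. Of 5 erythrocyte genes 2 (40.0%), Hba-a1 and Hba-a2, were lower at p under 0.01, both at −0.39. The summed level of all 5 ran from 211 to 403 TPM and 163 to 323 TPM in WT mice with vehicle and IMN. In Brd1+/- mice it ran from 216 to 546 TPM and 205 to 535 TPM. None of the 5 was lower at p under 0.01 after median-of-ratios scaling or quantile normalization, with the cortical or striatal score, with a replicate block, or in 18 of the 31 fits without 1 mouse (vehicle administered WT mice 1, 2, 4 and 6 to 8, IMN administered WT mice 3, 4 and 6 to 8, vehicle administered Brd1+/- mice 4, 5 and 7 and IMN administered Brd1+/- mice 1, 3, 5 and 8), and 4 were lower without IMN administered Brd1+/- mouse 7. The part of blood content in the results was not tested.

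Rab43, a small GTPase of the Golgi, had the largest estimate among the 107 genes, 1.57 (SE 0.37, adjusted p = 0.0488), and its values fell at 2 separate levels. It passed the FDR in 10 of 31 fits without 1 mouse, and with the cortical score in the fit its adjusted p was 0.0847. It was at 0.0977 to 2.12 TPM in 12 mice and at 10.2 to 15.4 TPM in the other 19. The low level was found in 5 of 8 vehicle and 0 of 8 IMN administered WT mice, and in 5 of 7 vehicle and 2 of 8 IMN administered Brd1+/- mice. The gene model Gm45140, which overlaps Rab43 on the same strand, was at 8.94 to 10.9 TPM in the same 12 mice and at 0.323 TPM or less in the others. The sum of the 2 genes ran from 9.03 to 15.5 TPM over all mice, with group medians of 11.3 and 12.1 TPM in WT and 10.9 and 11.5 TPM in Brd1+/- mice with vehicle and IMN. The value of Rab43 may thus reflect how reads were assigned between the overlapping models, which was not tested. Mlst8, a subunit of mTOR complexes, was also at 2 levels, 3.68 to 6.82 TPM in 8 mice, all of them vehicle administered (3 WT and 5 Brd1+/-), and 16.5 to 23.6 TPM in the other 23 mice. Its log2 fold change was 0.87 (SE 0.21, adjusted p = 0.0516), and 5 mice were at the low level of both Rab43 and Mlst8. Rab43, Gm45140 and Mlst8 were examined together after their values were seen.

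**Figure D5:**
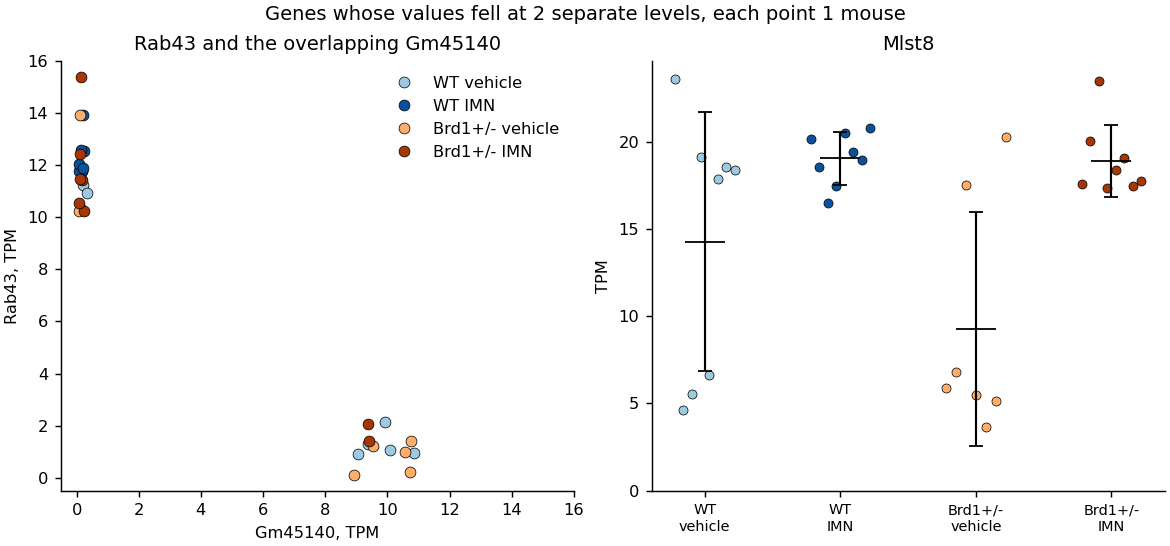
Left, TPM of Rab43 against TPM of the overlapping gene model Gm45140 in each of the 31 mice, coloured by group; right, TPM of Mlst8 by group with mean and SD. On the left 12 mice lie near the horizontal axis and 19 near the vertical axis, with none between, and on the right 8 vehicle administered mice lie at 6.82 TPM or less.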

How the data were processed

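The authors sequenced CPu RNA of 31 mice (BGISEQ-500, single-end) and, per the submitters' processing notes, used FastQC, Trimmomatic, HISAT2 2.1.0 with GRCm38 and StringTie 1.3.4. The deposited values are TPM for 52636 Ensembl genes in 31 columns, and each mouse's TPM sums to between 999787 and 999918. Read counts were not used here and the study's methods give a minimum number of clean reads per sample, not each mouse's own, so no counting error was computed for a value, and the study's edgeR test on counts was replaced.

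Genes above 0.1 TPM in at least 7 mice (25394) were fitted on log2(TPM + 1) with limma 3.58.1 (R 4.3.3), using treatment and genotype as terms and moderation with a trend in the prior variance. Tests were two-sided. Adjusted p values are Benjamini-Hochberg over all genes tested, with thresholds of p under 0.01 and an FDR of 5% as in the study's methods. Effects within each genotype and their difference came from a fit of the 4 group means with a common spread. The fit was tested on simulated data. Genes were joined by identifier to GENCODE M21, which held 52489 of them.

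By rule the named genes were the 12 with the smallest p in each direction whose symbol is not a Gm number or Rik name, 8 with a p under 0.01 and the same direction in both genotypes, ranked by the larger p, up to 3 of each list by p, cell type markers and Brd1, though not all are printed and some are not reported here. Other genes named in the text, further list members among them, were chosen after their values were seen. The members, gene lists and tests were chosen with earlier results of these data known. Lists are described by counts and medians, with no test of the list, and some genes belong to more than one list, such as Dusp1. The alternatives tried were median-of-ratios scaling, quantile normalization, 0.1 as pseudocount, a filter at a mean of 1 TPM, all genes above 0 in any mouse, no trend, weights for each mouse, a replicate block, the average over 4 group means, no genotype covariate, a cortical or striatal marker score as a covariate, and each mouse left out. Leaving out the 8 mice with a cortical score over 4.5, that score with median-of-ratios scaling, and an oligodendrocyte marker score as a covariate, were added after seeing the data.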

Additional observations from a re-analysis of the deposited data

Results flagged for a closer look

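In 45 genes of the text and 4 groups each, 180 groups of mice were examined for 1 mouse apart from the rest of its group. Dixon's criterion was applied on the log2(TPM + 1) scale, and 7 were found, where chance gives about 1 in 20. The 7 found are not above that rate. Plin4 was at 12.6 TPM in vehicle administered WT mouse 1, against 0.675 to 2.98 TPM in the other 7, the same mouse in which Inka2 was at 45.6 TPM, against 64.2 to 75.9 TPM, and Slc35a4 at 44.0 TPM, above the other 7. Tmem91 was at 20.4 TPM in vehicle administered WT mouse 2, against 34.0 to 51.1 TPM, and that mouse had the lowest striatal marker score. Sox18 was at 5.35 TPM in IMN administered WT mouse 6, against 6.15 to 6.78 TPM. Among Brd1+/- mice, Npas2 was at 84.7 TPM in IMN mouse 3, against 49.2 to 62.0 TPM, and Gbp4 at 0.132 TPM in IMN mouse 2, against 0.271 to 0.387 TPM.

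The effect of IMN differed between the genotypes at p under 0.01 for 4 of the 45 genes, beside 951 of all 25394 genes (3.74%). Since Slc35a4 and Clk3 were named after their values were seen, that count is not a test of the 45. None of the 4 was under an FDR of 5% for the difference (limma). The difference, Brd1+/- minus WT on the log2 scale, was 0.775 for Depp1 (adjusted p = 0.261), which changed more in Brd1+/- mice. It was 0.628 for Slc35a4 (adjusted p = 0.261), 0.413 for Clk3 (adjusted p = 0.261) and 1.73 for Adra1d (adjusted p = 0.261), which were lower with IMN mainly in WT mice. Adra1d was high in the 6 vehicle administered WT mice with a cortical score over 4.5 (4.27 to 38.04 TPM) and at 0.596 TPM or less in the other 2.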

How the results depend on the processing

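All 107 genes kept their direction in every setting that tested them, and of the 45 genes of the text examined none reversed. Every setting refitted mice in which the 107 were chosen, which by itself favours a kept direction. The number under an FDR of 5%, 107, became 184 with weights for each mouse, 52 without the genotype covariate, 34 with the cortical and 52 with the striatal score as a covariate, 25 without the 8 mice over 4.5 on the cortical score, 30 with median-of-ratios scaling and the cortical score and 366 with the oligodendrocyte score; the same 107 held 100, 52, 32, 41, 13 (of 105 tested), 25 and 107 of those calls, and 73, 64 and 50 of them after median-of-ratios scaling, quantile normalization and with a replicate block. Replicate numbers did not pair the mice (9 of 45 same-numbered pairs had a correlation over 0.1, median 0.00663); with a replicate block 55 genes passed, with 347 higher and 897 lower at p under 0.01. The counts at p under 0.01 became 613 higher and 692 lower after median-of-ratios scaling and 601 and 639 after quantile normalization, and the lower count became 451 and 528 with the cortical and striatal scores, 402 without the 8 mice (with 450 higher, so that the excess of lower genes turned round), 416 with both changes and 1600 with the oligodendrocyte score. With 1 mouse left out the FDR count ran from 43 to 368, the higher count from 266 to 417 and the lower count from 786 to 1700. The FDR count was lower by more than 1.5 times without vehicle administered WT mice 2 to 5 or 7, IMN administered WT mice 1 to 4, 6 or 7, vehicle administered Brd1+/- mice 5 or 6 or IMN administered Brd1+/- mice 2 or 6, and higher by more than 1.5 times without vehicle administered WT mice 6 or 8 or IMN administered WT mouse 5. Genes at p under 0.01 in the same direction in both genotypes numbered 46, or 100 with weights and 29 to 57 without 1 mouse (30 and 29 without vehicle mouse 5 and IMN mouse 2 of the Brd1+/- mice). Of the 107, 3 differed between genotypes, or 13 with weights and 2 to 8 without 1 mouse (8, 6 and 5 without vehicle administered WT mice 6 and 8 and IMN administered WT mouse 5). The causes were not tested. TPM keeps no read counts, so no counting error is given for low genes such as Gbp4 and Adra2b.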

Other observations

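Among markers of other cells, Pvalb, the calcium buffer of fast-spiking interneurons, had a log2 fold change of −1.01, with −1.57 in WT and −0.41 in Brd1+/- mice, and −0.56 with the cortical score in the fit. It was at 283.6 TPM in vehicle administered WT mouse 2, the mouse lowest in striatal markers, and at 62.0 TPM or less in the other 30 mice, while the median of its list of 10 interneuron genes was 0.01. In the choroid plexus and ependyma list of 7 tested genes 1 (14.3%) was higher at p under 0.01, beside 1.31% of all genes. It was Kl, which encodes the membrane protein Klotho, at 0.34. The count became 0 with the cortical or striatal score and without the 8 mice over 4.5 on the cortical score. It was also 0 in 17 of the 31 fits without 1 mouse. Among IMN administered Brd1+/- mice Kl was at 4.53 TPM in mouse 3 and at 1.63 TPM or less in the others. Naglu, a lysosomal enzyme, was higher at 0.20, and Ctsb and Atp6v0d1, a lysosomal protease and a proton pump subunit, were lower at −0.23 and −0.24. Of glutamate receptor subunits, Grik5 and Grin1 were lower at −0.19 and −0.18, neither of them at p under 0.01 after median-of-ratios scaling or quantile normalization. Each of these 7 genes had a p under 0.01 and an adjusted p of 0.108 or more (limma), and 3 of the 7, Naglu, Atp6v0d1 and Grik5, still had a p under 0.01 with the cortical score in the fit.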
